A study of Homo sapiens with 4 samples.

Results

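Genes that move zinc across membranes or sense it (MTF1, SLC30A1, SLC30A5, SLC30A6, SLC30A7, SLC39A1, SLC39A6, SLC39A7, SLC39A10 and SLC39A14) were followed upon knockdown of HMGB1. They were chosen by name, with earlier results of these data known, as 10 of the 63677 genes counted. All 10 had enough reads to be tested. The cells were IMR90, human fetal lung fibroblasts, transfected for 72 h with a non-targeting control (NTC) or with siRNA against HMGB1, using RNAiMAX. The study's methods name a pair of different siRNAs for IMR90, and which library received which is not given in the sources used here. RNA-seq of poly(A) RNA was done on 2 control and 2 HMGB1 knockdown libraries. Both groups hold 1 library of the isolate I90-10 (replicate 1) and 1 of I90-79 (replicate 2), so each isolate gives its own comparison. The study's methods list both isolates as passage 5 from the repository and do not state the passage at transfection. The line senesces with long passaging. The question asked was whether a zinc response is seen outside the metallothioneins, the small zinc-binding proteins.

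Cells keep free zinc very low. The SLC30 (ZnT) proteins carry zinc out of the cytosol, to the outside or into organelles, and the SLC39 (ZIP) proteins carry it into the cytosol. MTF1 is a zinc-finger transcription factor that binds metal response elements in DNA when cytosolic zinc increases. Its classic targets are the metallothionein genes and SLC30A1, the exporter of the plasma membrane, while SLC39A10 is known as a gene that MTF1 and zinc hold down.

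Of the 10 genes, MTF1 had the largest increase upon HMGB1 knockdown and SLC39A10 the only decrease of more than 0.6 on the log2 scale. MTF1 mRNA was 2.04-fold higher in knockdown libraries and SLC39A10 mRNA 1.58-fold higher in control libraries. The exporter SLC30A1 differed by a log2-fold change of −0.027, with a 95% interval from −0.38 to 0.33. In the same libraries MT1E, MT1X and MT2A, the abundant metallothioneins, had log2-fold changes of 1.497 ± 0.34, 2.42 ± 0.26 and 1.504 ± 0.39 (SE). In edgeR's quasi-likelihood test, a gene was called where its Benjamini-Hochberg adjusted p was below 0.01 and its log2-fold change beyond 0.6 in either direction. By this rule 0 of the 10 genes were up- and 0 downregulated, where 0.0649% and 0.136% of all 15398 genes tested were. MT1E, MT1X and MT2A were not called by it either, with adjusted p of 0.057, 0.014 and 0.076. In simulated counts of 15071 genes, 100 had a log2-fold change of 1 in size, and the rule called only 9% of them. Changed genes were few there and isolates were not paired, so the share missed in these data is not known. At an unadjusted p below 0.05 there were 4 of the 10, against 28.3% of all genes tested. When the isolate was added as a replicate block, 1 gene, MTF1, was up- and 1, SLC39A10, was downregulated, where 6.68% and 7.84% of all genes were. At an adjusted p below 0.05 with any fold change, 1 gene was higher and 0 lower without the block (3.94% and 4.5% of all genes), and 4 were higher and 1 lower with it (15.9% and 16.3%). DESeq2 called MTF1 alone, and both RUVs followed by DESeq2 and DESeq2 with the block called MTF1 and SLC39A10. The median log2-fold change of the 10 genes was 0.11, beside −0.0054 for all genes tested, and it was −0.012 without control replicate 1.

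**Figure D1:**
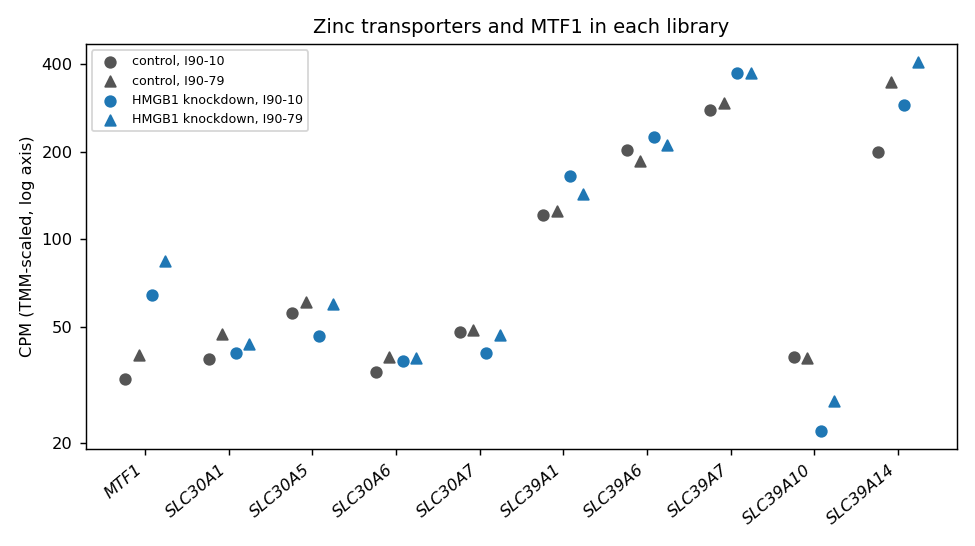
Level in CPM (scaled with TMM, log axis) of each zinc gene in the 4 libraries, with grey for control, blue for HMGB1 knockdown, circles for isolate I90-10 and triangles for I90-79. Both knockdown libraries lie above both control libraries for MTF1 (64.4 and 84.5 over 33.1 and 40.03) and below them for SLC39A10 (22.1 and 27.8 under 39.6 and 39.3), while those of SLC30A1 fall among the controls.

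The libraries held between 29861687 and 35317010 reads counted on genes. HMGB1 itself had 181 and 237 CPM (counts scaled to the depth of each library, with TMM factors) in control and 15.96 and 18.9 CPM in knockdown libraries, a log2-fold change of −3.59 ± 0.19 (SE; adjusted p = 0.0075). All 9 fibroblast markers examined were present, with summed levels of 23916 to 45711 CPM in control and 24911 to 39151 CPM in knockdown libraries. Single markers moved in both directions. Log2-fold changes were −0.95 for THY1, −0.81 for FN1, −0.73 for PDGFRB, 0.58 for PDGFRA and 0.40 for COL3A1. Their adjusted p in edgeR lay between 0.14 and 0.40, and between 3.1e-04 and 0.016 with the replicate block. COL1A1, COL1A2, VIM and DCN lay between −0.15 and 0.051. CDH5, a defining endothelial gene, had 0 reads in every library and the immune marker PTPRC at most 1. The sum of 3 endothelial markers was 1.498 and 1.493 CPM in control and 4.33 and 3.39 CPM in knockdown libraries. VWF carried this difference, with 40 and 34 reads in control and 120 and 81 in knockdown libraries, while KDR had 4 and 21 and then 5 and 25. The part of VWF-expressing cells in the results was not tested. In such bulk RNA, fewer cells of a type and less RNA per cell cannot be told apart. The study speaks of donors or isolates elsewhere, and whether I90-10 and I90-79 are separate donors is not settled by the sources used here, so p measures the spread between these libraries only. Permuting 4 libraries in groups of 2 (exact, two-sided) allows no p under 0.333, and every smaller p given here comes from edgeR or DESeq2, which share information between genes.

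MTF1 (ENSG00000188786), the metal sensor, lies at chr1:38275239-38325292 of hg19, minus strand. It had 33.1 and 40.03 CPM in the control and 64.4 and 84.5 CPM in the knockdown libraries. The lower knockdown library, from I90-10, lay well above the higher control library, from I90-79, so the groups did not overlap. Both knockdown libraries lay above both controls for 29.8% of all genes tested. The log2-fold change was 1.03 ± 0.18 (SE; 95% interval 0.57 to 1.49, adjusted p = 0.036). It was 0.96 in I90-10 and 1.08 in I90-79. With the replicate block it was 1.02 ± 0.10 (SE; adjusted p = 2.7e-04), which passes both thresholds. Over all alternatives the log2-fold change lay between 0.82 and 1.21 and the adjusted p between 7.5e-10 and 0.13. No exonic base of MTF1 is shared with another gene of the count files.

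SLC30A1 (ENSG00000170385), or ZnT1, exports zinc across the plasma membrane and is the transporter whose induction by zinc through MTF1 is best known. It lies at chr1:211744910-211752084 of hg19, minus strand. It had 38.9 and 47.2 CPM in control and 40.8 and 43.7 CPM in knockdown libraries. Both knockdown values fell between the controls. The change was 0.069 in I90-10 and −0.11 in I90-79 on the log2 scale. The adjusted p was 0.92, and 0.89 with the replicate block, where the 95% interval of the log2-fold change ran from −0.26 to 0.22. A doubling like that of MTF1 lies outside this interval. Leaving out single libraries turned the sign, to 0.12 without control replicate 2 and 0.019 without knockdown replicate 1.

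The promoters of SLC30A1 and of the metallothioneins were searched for the core of the metal response element, since MTF1 binds it. RefSeq promoters of GRCh38.p14, from 250 bases before to 50 after the start site, were found for 9 of the 10 zinc genes and for 5 of 11 metallothioneins. The letters TGCACNC or TGCGCNC, on either strand and with overlapping matches counted, occur in 29.6% of all 35116 promoters, and 2 or more times in 8.6%. Of the 11 windows of the 9 zinc genes, 5 held at least 1 match, each in a different gene, and SLC30A1 held 2. All 5 metallothionein promoters found, those of MT1B, MT1H, MT1X, MT2A and MT4, held matches. There were 8 each in MT2A and MT1H, 4 in MT1X and 3 each in MT1B and MT4. MT1B and MT4 had 0 reads in every library. Promoters of MT1A, MT1E, MT1F, MT1G, MT1M and MT3 were not searched. The SLC30A1 matches and a pair from MT2A and MT1X are shown with the core in capitals, each read 5′ to 3′ on the strand that holds it.
SLC30A1, chr1:211579192-211579221, plus strand: aaaactttgcttTGCACTCggaacccccgt
SLC30A1, chr1:211579119-211579148, plus strand: ggccacggcagcTGCACTCggcccggtctc
MT2A, chr16:56608519-56608548, plus strand: ggcggggctttTGCACTCgtcccggctctt
MT1X, chr16:56682381-56682410, minus strand: ccgcctcgtcctTGCACCCgcccctgctga
The MTF1 promoter itself held 0 matches in this window. Of the 2 SLC39A10 windows, the upstream one held 0 and the other 1, 33 bases after its start site.
SLC39A10, chr2:195657248-195657275, plus strand: cggagaggagaTGCACACggcactcgag
A match describes these letters only, and whether MTF1 binds there was not measured.

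SLC39A10 (ENSG00000196950), or ZIP10, brings zinc into the cell at the plasma membrane. It lies at chr2:196440701-196602426 of hg19, plus strand. It had 39.6 and 39.3 CPM in control and 22.1 and 27.8 CPM in knockdown libraries. The controls were nearly equal and both knockdown libraries lay below them, as for 30.2% of all genes tested. The log2-fold change was −0.66 ± 0.15 (SE; 95% interval −1.05 to −0.27, adjusted p = 0.061), with −0.84 in I90-10 and −0.50 in I90-79. With the replicate block it was −0.67 ± 0.12 (SE; adjusted p = 0.0043), past both thresholds. Over all alternatives it lay between −0.83 and −0.50.

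The other importers of the chosen list had higher point values in knockdown, though none passed the thresholds in either fit. SLC39A7 (ENSG00000112473), or ZIP7, releases zinc from the endoplasmic reticulum. It lies at chr6:33168222-33172216 of hg19. Its level was 278 and 293 CPM in control and 371 and 371 CPM in knockdown libraries. The knockdown libraries were nearly equal, and the groups did not overlap. The log2-fold change was 0.38 ± 0.12 (SE; adjusted p = 0.11), with 0.42 in I90-10 and 0.34 in I90-79, and the adjusted p was 0.017 with the block. It overlaps RXRB on the opposite strand in 11.6% of its exonic bases, and the strand setting of the counting is not given in the sources used here, so reads of that part cannot be told apart. SLC39A1 (ENSG00000143570), or ZIP1, a widely expressed importer of the plasma membrane, lies at chr1:153931575-153940188 and shares 5.51% of its exonic bases with CREB3L4 on the opposite strand. It had 121 and 125 CPM in control and 165 and 143 CPM in knockdown libraries. Here too the groups did not overlap, with a log2-fold change of 0.44 in I90-10 and 0.19 in I90-79. Over both isolates it was 0.32 ± 0.12 (SE; adjusted p = 0.16, and 0.046 with the block).

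SLC39A6 (ENSG00000141424), or ZIP6, is known to pair with ZIP10. It lies at chr18:33688495-33709348 of hg19, as the build of all gene positions here. It had 203 and 185 CPM in control and 225 and 211 CPM in knockdown libraries. The groups were apart by less than the spread within either. It differed by 0.17 on the log2 scale (95% interval −0.14 to 0.47, adjusted p = 0.42), with 0.15 in I90-10 and 0.19 in I90-79, and the adjusted p was 0.20 with the block. Leaving out 1 library at a time gave 0.10 to 0.23. ZIP6 and ZIP10 mRNAs thus had opposite signs, and the difference between them was not tested. SLC39A14 (ENSG00000104635), or ZIP14, carries zinc, iron and manganese and is known to respond to interleukin-6. Of the 10 genes it had the largest SD in both groups, with 199.9 and 346 CPM in control and 289 and 405 CPM in knockdown libraries. The groups overlapped, and the isolate I90-79 was the higher in both. The log2-fold change was 0.35 ± 0.31 (SE; adjusted p = 0.50) without the isolate term and 0.38 ± 0.11 (SE; adjusted p = 0.029) with it. It was 0.53 in I90-10 and 0.23 in I90-79. With 1 library left out at a time it ranged from 0.0018 to 0.80.

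ZnT5, ZnT6 and ZnT7, the exporters that load zinc into the early secretory pathway for enzymes such as alkaline phosphatase, did not pass the thresholds in either fit. SLC30A5 (ENSG00000145740, chr5:68389473-68426896), whose protein pairs with that of SLC30A6, shares 9.20% of its exonic bases with 1 gene on the opposite strand. It had 55.8 and 60.9 CPM in control and 46.5 and 60.1 CPM in knockdown libraries. The knockdown library of I90-10 was the low one, with a log2-fold change of −0.26 in that isolate and −0.020 in I90-79. SLC30A6 (ENSG00000152683, chr2:32390933-32449448) had 35.0 and 39.5 CPM in control and 38.4 and 39.3 CPM in knockdown libraries, and its groups overlapped. SLC30A7 (ENSG00000162695, chr1:101361632-101447309) had 48.2 and 48.8 CPM in control and 40.8 and 47.0 CPM in knockdown libraries, so that both knockdown values were lower by a small margin (−0.24 in I90-10 and −0.054 in I90-79 on the log2 scale). Their log2-fold changes were −0.13 (95% interval −0.53 to 0.27), 0.061 (−0.25 to 0.37) and −0.14 (−0.46 to 0.17), with adjusted p of 0.63, 0.78 and 0.49. With the replicate block the adjusted p values were 0.35, 0.68 and 0.32. With 1 library left out at a time, the log2-fold change of SLC30A7 lay between −0.24 and −0.048.

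**Figure D2:**
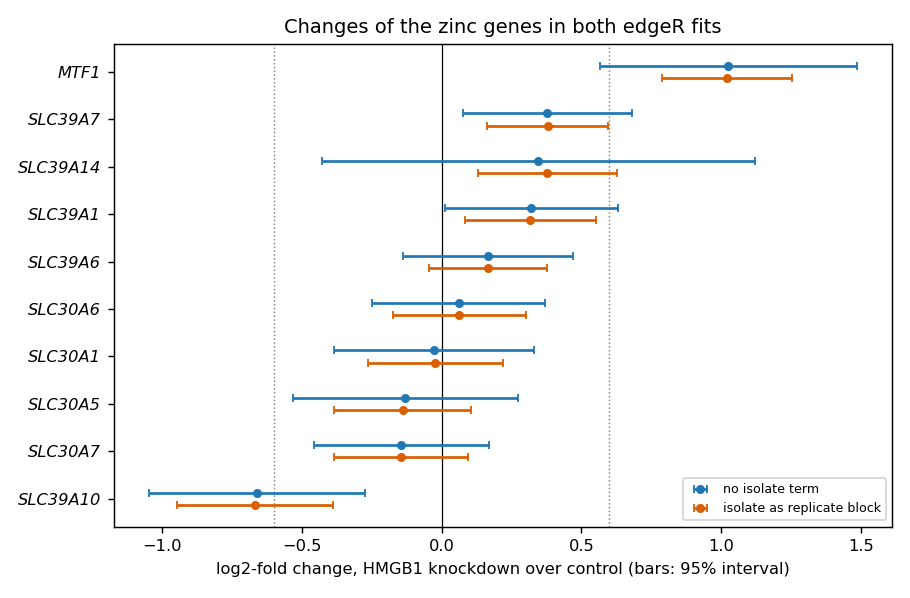
Log2-fold change of each zinc gene, HMGB1 knockdown over control, with its 95% interval from edgeR without a term for the isolate (blue) and with a replicate block for the isolate (orange). Dotted lines mark the threshold of 0.6 in either direction. Only the intervals of MTF1, SLC39A7, SLC39A1 and SLC39A10 leave out 0 without the block, and the interval of SLC39A14 narrows most with it.

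Across the 10 genes, 4 had both knockdown libraries above both controls and 2 had both below, beside 29.8% and 30.2% of all genes tested. By family, 4 of the 5 SLC39 genes were higher and 1 lower as point values, and 1 of the 4 SLC30 genes was higher and 3 lower. Of all genes tested, 7642 were higher and 7756 lower as point values. The 6 other SLC39 genes tested split into 3 higher and 3 lower, with a median log2-fold change of −0.018. In both isolates alike, 5 genes were higher and 3 lower, and SLC30A1 and SLC30A6 changed sign between the isolates. Of all 15398 genes tested, 5987 were higher and 6071 lower in both isolates, and 3340 changed sign.

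Levels of different genes were compared per length, as RPKM (the same CPM divided by the exonic length in kb). In control libraries SLC39A7 stood first with 100.4 ± 3.94 RPKM (SD, n = 2), then SLC39A6 with 52.7 ± 3.50 (SD, n = 2), SLC39A14 with 39.3 ± 14.9 (SD, n = 2) and SLC39A1 with 37.9 ± 0.885 RPKM (SD, n = 2). The control values of SLC39A14 and SLC39A1 overlapped, so these neighbors were not told apart. SLC30A5 followed with 10.1 ± 0.628 RPKM (SD, n = 2) and SLC30A1 with 7.87 ± 1.07 (SD, n = 2), whose values overlapped those of SLC30A6, at 6.91 ± 0.589 RPKM (SD, n = 2). SLC30A7, SLC39A10 and MTF1 closed the order with 5.79 ± 0.0467, 5.70 ± 0.0270 and 4.56 ± 0.608 RPKM (SD, n = 2). In knockdown libraries SLC39A7 was again first, and SLC39A14, with 41.6 and 58.3 RPKM, overlapped both SLC39A6 and SLC39A1. MTF1, at 9.28 ± 1.77 RPKM (SD, n = 2), could not be told apart from SLC30A5, at 9.21 ± 1.66 RPKM (SD, n = 2), and SLC39A10, at 3.61 ± 0.590 RPKM (SD, n = 2), was the lowest. Sums were taken over the chosen genes only, without SLC39A9 and the other transporters. The summed level of the 5 SLC39 genes was 225 and 247 RPKM in control and 287 and 294 RPKM in knockdown libraries. That of the 4 SLC30 genes was 29.0 and 32.3 RPKM in control and 27.5 and 31.3 RPKM in knockdown libraries, which overlap.

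**Figure D3:**
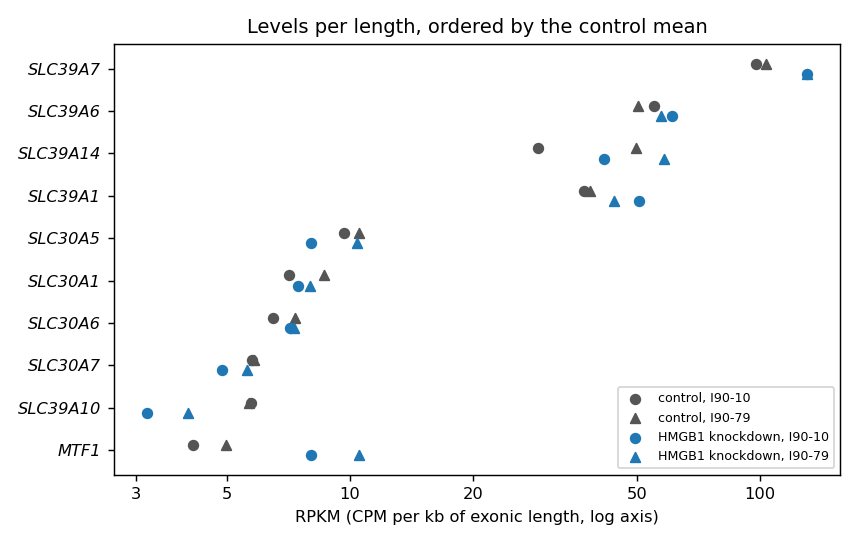
Level per length (RPKM, log axis) of each zinc gene in each library, ordered by the control mean, with the symbols of the plot of CPM by library. SLC39 importers other than SLC39A10 lie above the other genes in every library, and the MTF1 points of knockdown libraries (8.03 and 10.5) lie right of its control points (4.13 and 4.99).

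The metallothioneins were set beside these genes as classic targets of MTF1. Zinc and the activity of MTF1 were not measured in these libraries. Of 11 genes, 7 were tested, and 4 of them (MT1A, MT1F, MT1G and MT1M) reached 10 reads in both libraries of the knockdown group alone, so that passing the filter favored a higher level there. MT1E, MT1X and MT2A had at least 10 reads in every library, and both knockdown libraries lay above both controls for each. Of the 4 genes not tested, MT1B and MT4 had 0 reads, MT1H had 0 and 0 in control and 8 and 12 in knockdown libraries, and MT3 had 1 and 6 in control and 1 and 0 in knockdown libraries. MT1G, with 0 and 1 reads in control and 204 and 240 in knockdown libraries, was called without the block, where 0.0649% of all genes were upregulated. With the block 6 of the 7 were called, where 6.68% of all genes were upregulated. MT1G, MT1F and MT1M are among the 4 genes that the filter favored, so their calls add no support. MT1F, with 3 and 17 reads in control and 188 and 193 in knockdown libraries, and MT1M, with 2 and 6 against 28 and 29, were called with the block. So were MT1E and MT1X, with log2-fold changes of 1.497 and 2.42 without it, and MT2A. MT1X shares 18.1% of its exonic bases with another gene on the same strand. MT1A did not reach 0.01 (adjusted p = 0.051 with the block). MT2A, the most abundant, had 558 and 1223 CPM in control and 2323 and 2728 CPM in knockdown libraries. The summed metallothionein level was 494 and 1071 RPKM in control and 2067 and 2415 RPKM in knockdown libraries, beside the SLC30A1 level of 7.11 and 8.63 and of 7.46 and 7.98 RPKM.

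The other genes of the pathway were 23 further genes: the remaining SLC30 and SLC39 transporters, 7 genes listed as MTF1 targets, and TMEM163. The 7 listed targets were SELENOH, SELENOW, GCLC, NDRG1, CSRP1, SLC40A1 and PGF. Of the 23 genes, 15 were tested, and the 8 others had at most 11 reads in any library. As point values 7 of the 15 were higher and 8 lower, with log2-fold changes from −1.10 to 0.67 and a median of −0.15. The 7 listed MTF1 targets were 3 higher and 4 lower. SLC30A2, SLC30A8, SLC30A10 and SLC39A12 had 0 reads in all 4 libraries, where 3 reads would be 0.0849 to 0.1 CPM. Without the block 0 were up- and 0 downregulated, while 5 of the 15 had an unadjusted p below 0.05, beside 28.3% of all genes tested. With the block 1 of 15 was up- and 2 were downregulated, beside 6.68% and 7.84% of all genes, and DESeq2 without it gave 0 and 2.

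SLC39A9, or ZIP9, an importer of the Golgi and the cell surface, came nearest to the threshold. It had 109 and 105 CPM in control and 49.3 and 50.9 CPM in knockdown libraries. The values within each group were close and the groups were far apart. It shares 5.23% of its exonic bases with ERH on the opposite strand. The log2-fold change was −1.10 ± 0.11 (SE; adjusted p = 0.012, and 1.7e-04 with the block). NDRG1, a stress gene induced by hypoxia and metals, had 169 and 156 CPM in control and 98.6 and 82.0 CPM in knockdown libraries, a log2-fold change of −0.85 ± 0.14 (SE; adjusted p = 0.030, and 5.0e-04 with the block). SELENOW, which encodes a small selenoprotein, had 74.2 and 67.5 CPM in control and 127 and 91.3 CPM in knockdown libraries, a log2-fold change of 0.62 ± 0.18 (SE; adjusted p = 0.10, and 0.0047 with the block), and of 0.36 without knockdown replicate 1. SLC30A4, or ZnT4, a vesicular exporter, which shares 4.79% of its exonic bases with genes on the opposite strand, had 12.9 and 9.44 CPM in control and 7.38 and 6.596 CPM in knockdown libraries (log2-fold change −0.68, adjusted p = 0.13, and 0.0158 with the block). SLC30A4 came to −0.44 when control replicate 1 was left out. SLC39A3, or ZIP3, an importer, which shares 9.58% of its exonic bases with another gene on the same strand, had 18.2 and 20.4 CPM in control and 25.8 and 27.2 CPM in knockdown libraries (log2-fold change 0.46, adjusted p = 0.10, and 0.0165 with the block). In all 5 of these genes the groups did not overlap, so the sign was shared by both isolates. Both knockdown libraries lay above both controls for 29.8% of all genes tested and below them for 30.2%. The 5 genes were named for an adjusted p below 0.05 with the block, so this count adds no support.

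**Figure D4:**
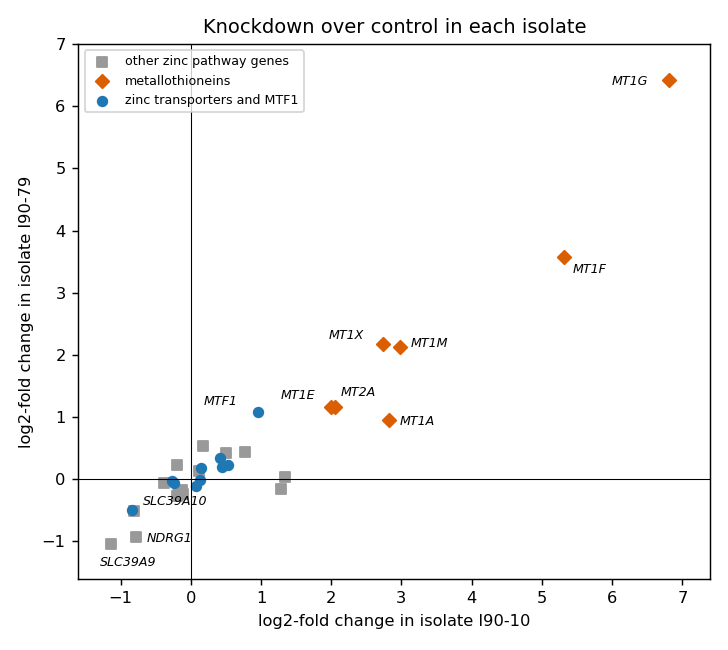
Log2-fold change in isolate I90-10 against that in I90-79 (log2 CPM with a prior count of 2, 1 library per arm in each isolate) for the zinc transporters and MTF1, the other zinc pathway genes tested and the metallothioneins tested. MT1E, MT1X and MT2A, the metallothioneins with at least 10 reads in every library, lie above 0 in both isolates, MTF1 lies at 0.96 and 1.08, and most transporters lie near the origin.

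The word GCAGTT was counted in the 3′ UTRs, because genes that hold it were lower upon knockdown across the whole data set. It was picked from earlier results of these data and its part in any change here was not tested. Nor was the part of 3′ UTR length, since genes were not matched for it. Among 12787 tested genes with a 3′ UTR in GENCODE, the median log2-fold change was 0.072 for 0 copies in the longest 3′ UTR, −0.082 for 1, −0.21 for 2 and −0.29 for 3 or more. Of the 10 zinc genes, 5 held it, beside 37.2% of all these genes. SLC30A1, with both knockdown values between its controls, held 2 copies, and MTF1, which was higher, held 1. They are shown with the word in capitals and 10 bases on either side, on GRCh37, minus strand.
SLC30A1, chr1:211747669-211747694: gaaggttaatGCAGTTtggatattaa
SLC30A1, chr1:211745128-211745153: ccagttaaatGCAGTTatcatctcat
MTF1, chr1:38275946-38275971: tcagctcaatGCAGTTtctacttttt
SLC30A5, SLC30A6 and SLC39A14 held 1 copy each. SLC39A10, which was lower, held 0, as did SLC30A7, SLC39A1, SLC39A6 and SLC39A7. Of the other pathway genes with low adjusted p, SLC39A9, NDRG1 and SLC30A4, which were lower, held 2 copies each. Among the 12787 genes, 8.79% held 2 copies. The word and these pathway genes were both picked from these data, so copies set against direction cannot serve as a test. SELENOW and SLC39A3, which were higher, held 0 copies, as did 62.8% of the 12787 genes. So did all 11 metallothioneins, whose 3′ UTRs are short, with 25 to 394 bases beside 3797 in SLC39A9 and 5557 in SLC30A4. The SLC39A9 copies are shown on the plus strand.
SLC39A9, chr14:69925493-69925518: catttacgttGCAGTTagctatagac
SLC39A9, chr14:69928916-69928941: ggataagactGCAGTTcccctggttc

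**Figure D5:**
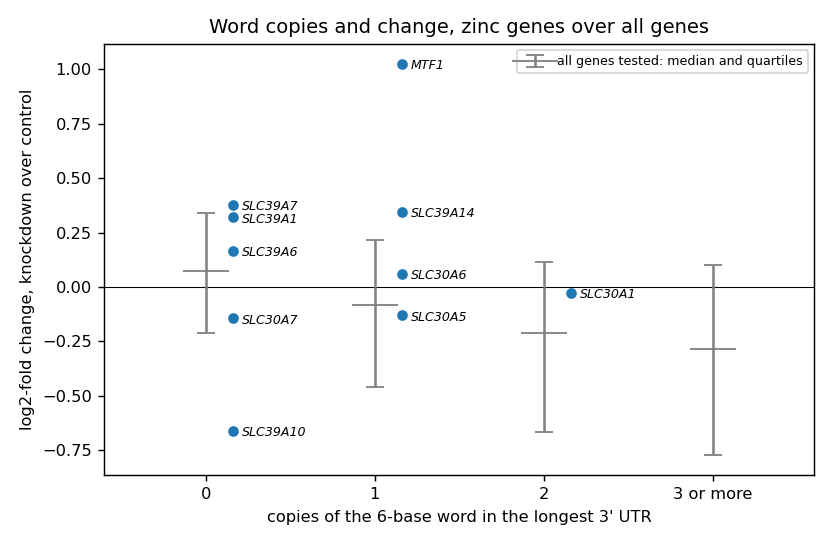
Log2-fold change, HMGB1 knockdown over control, by the number of copies of GCAGTT in the longest 3′ UTR, with grey bars for the median and quartiles of all 12787 genes and blue points for the 10 zinc genes. The grey medians step down from 0.072 to −0.29, SLC39A10 lies at −0.66 with 0 copies, and SLC30A1 lies at −0.027 with 2.

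The genes whose pattern over the 4 libraries was most like that of SLC30A1, by the Euclidean distance of centered log2 CPM among 9322 genes with at least 10 CPM, were CPSF3 (distance 0.030), EIF2B4 (0.0315) and ILKAP (0.0333). For MTF1 they were SYPL1 (0.0646), BAZ1A (0.0746) and YOD1 (0.0815). These are descriptions over 4 libraries.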

How the data were processed

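RNA-seq counts came from 4 IMR90 libraries, 2 control and 2 HMGB1 knockdown, grouped by the labels. The authors aligned to hg19 using STAR. They deposited, for each library, raw counts of uniquely mapped reads from featureCounts for 63677 genes. Versions and the strand setting are not given in the sources used here. Exonic lengths and overlaps come from the same files, symbols from a reference table (55665 genes matched, but not ZNF658).

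Counts were tested with edgeR 4.0.16 in R 4.3.3: filterByExpr, TMM and the quasi-likelihood test, with Benjamini-Hochberg over 15398 genes. A call needed adjusted p below 0.01 and a log2-fold change beyond 0.6 in size. The standard error is the log2-fold change over the square root of F. The isolates pair the libraries, since each occurs in both groups, and the I90-10 minus I90-79 difference in control correlated at 0.464 with that in knockdown libraries over 15398 genes. The fit has no isolate term, and the fit with the replicate block is printed where it changes a call. Alternatives were DESeq2 1.42.0 with or without the block, RUVs (1 factor, written out from its description), other size factors, other filters, a threshold of 0.05 and each library left out. The edgeR test was checked on simulated counts of 15071 genes, where 84% of genes with a log2-fold change of 2 and 9% of those with 1 were called. Each size was given to 100 genes, and isolates were not paired in the simulation. Among the unchanged genes 5 were called.

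The zinc genes and lists were chosen with earlier results of these data known. By rule, every zinc gene is named, as is each gene of the other lists that was called or had an adjusted p below 0.05 with the block. MT1A, outside the rule, was named after its values were seen. RefSeq promoters are on GRCh38.p14, and 3′ UTRs come from GENCODE lifted to GRCh37.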

Additional observations from a re-analysis of the deposited data

Results flagged for a closer look

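Of the 10 zinc genes, 2 moved in opposite directions in the isolates, and the difference between the isolates was not tested, since each isolate has 1 library in each arm. The log2-fold change of SLC30A1 was 0.069 in I90-10 and −0.11 in I90-79, and that of SLC30A6 was 0.13 in I90-10 and −0.0060 in I90-79.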

How the results depend on the processing

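Without the isolate term 10 genes were up and 21 down in all, and these counts moved with the processing. Up- and downregulated genes numbered 728 and 818 with DESeq2, 763 and 829 with RUVs and DESeq2, 1118 and 1275 without the filter on low counts, 1028 and 1207 with the replicate block, 967 and 1091 with DESeq2 and the block, and 606 and 693 at an adjusted p below 0.05 with any fold change; with at least 10 counts in every library 6 were up. Leaving out single libraries gave 0 to 305 up and 0 to 337 down. Of the 10 zinc genes, 1 was up under each of these 6 alternatives other than the 10-count filter, and 1 was down with RUVs and DESeq2, without the filter, and with either block. Of the other pathway genes, 1 was up with RUVs and DESeq2, without the filter and with either block, 2 were down under the same 6 alternatives, and 0 to 1 were down without single libraries. Metallothioneins called up, 1 in the test reported, were 5 with DESeq2, 4 with RUVs and DESeq2, 7 without the filter, 0 with at least 10 counts, where MT1G is left out, 6 with the replicate block, 5 with DESeq2 and the block, 4 at an adjusted p below 0.05, and 0 to 5 without single libraries. The median log2-fold change of the zinc genes was 0.023 with RUVs and lay between −0.012, without control replicate 1, and 0.14 without single libraries. Signs turned without single libraries for SLC30A1 (−0.16 to 0.12), SLC30A5 (−0.32 to 0.040) and SLC30A6 (−0.025 to 0.15). The cause of these moves was not tested. The 20 group means of CPM of the zinc genes, taken from library totals alone, differed by at most 1.02 times. Of these means, 3 moved by at least their SD.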
